A study of Mus musculus with 16 samples.

Results

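Cells carry receptors in the cytosol that detect foreign or misplaced nucleic acids, and 10 genes of this system were described here in mouse mammary carcinoma cells. The genes were chosen by name: Ddx58 (RIG-I), Ifih1 (MDA5), Dhx58 (LGP2), Mavs, Trim25, Cgas, Tmem173 (STING), Zbp1, Eif2ak2 (PKR) and Tbk1. All 10 were found among the 33072 genes of the count table. RNA had been sequenced from 4T1 cells, labelled metastatic, and from 67NR cells, labelled non-metastatic, 2 lines that stem from the same spontaneous tumor of a BALB/c mouse. Each line had been treated for 24 h with vehicle (DMSO) or with 15 µM CIX, a competitive inhibitor of the phospholipase cPLA2α, in medium with serum. Each of the 4 groups held 4 biological replicates, which makes 16 samples, and a sample is named by the number in its label. Each cell line is a single line, so that a difference between 4T1 and 67NR is a difference between these lines and not between metastatic and non-metastatic tumors in general.

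RIG-I and MDA5 bind double-stranded RNA in the cytosol, RIG-I with a preference for ends that carry a triphosphate and MDA5 for long duplexes. Both pass the signal to MAVS on mitochondria. cGAS binds double-stranded DNA and makes the second messenger cGAMP, which activates STING on the endoplasmic reticulum. Both branches meet at the kinase TBK1, which phosphorylates IRF3 and so starts transcription of type I interferon. Many of the receptor genes are themselves induced by interferon, through a promoter element made of repeated GAAA cores.

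Because such an element is the sequence feature that the members may share, their promoters were searched for it. RefSeq promoters of 300 bases (250 before and 50 after the start site, GRCm38.p6) were at hand for 7 of the 10 genes, all but Dhx58, Tmem173 and Zbp1. The letters GAAANNGAAA, searched on both strands, occurred in 3.44% of all 32851 promoters of that length and in those of Ddx58, Ifih1 and Eif2ak2. They were not found in the windows of Mavs, Cgas, Tbk1 and Trim25, of which Trim25 also fell with CIX in 4T1 cells. The stretches around the matches are given because these 3 genes were among the members with lower expression in CIX treated 4T1 cells. Each is written 5′ to 3′ along the gene, with the matched letters in capitals. In Ddx58 the match lies at bases 3 to 12 after the start site and reads on the opposite strand, in Ifih1 at bases 33 to 42 and in Eif2ak2 at bases 19 to 28.
Ddx58, chr4:40239804-40239833, minus strand: cctgaggcagTTTCGATTTCctatggccag
Ifih1, chr2:62646206-62646233, minus strand: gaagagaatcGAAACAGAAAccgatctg
Eif2ak2, chr17:78882535-78882564, minus strand: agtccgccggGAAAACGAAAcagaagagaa

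Each match lay inside an annotated exon, in 2 of the 10 GENCODE transcripts of Ddx58, 1 of the 5 of Ifih1 and 2 of the 4 of Eif2ak2, and in none of them inside coding sequence. A match of letters is a description of the sequence and not evidence that a factor binds there.

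Samples held between 21715737 and 29450629 estimated counts. Levels are given as CPM (counts scaled by the size of the library) after TMM normalization over the 16 samples. The detection floor of 3 counts lay between 0.107 and 0.137 CPM, with counting error alone considered. Levels of different genes are compared as TPM, for which the counts were divided by the mean length of a gene's transcripts and scaled to a common sum. No 2 samples of a group were repeats of each other, since each of the 24 replicate pairs differed by a mean chi-square of at least 16.7 per gene. All 7 epithelial markers tested, Epcam and Cdh1 among them, were at 1 CPM or more in 4T1 cells, with a summed level of 2544 to 2728 CPM with vehicle and 2697 to 2954 CPM with CIX. In 67NR cells that sum was at most 5.54 CPM, whereas each of the 7 mesenchymal markers reached 1 CPM in at least 1 sample of both groups, so that the label of 67NR as a mammary carcinoma was not matched by epithelial markers. The mesenchymal sum was 2487 to 3302 CPM in vehicle and 4307 to 5207 CPM in CIX treated 4T1 cells, and 6035 to 6985 and 9164 to 10044 CPM in 67NR cells. In 4T1 cells nearly all of it was Vim and Fn1, with means of 1115 and 1655 CPM with vehicle and 2669 and 2178 CPM with CIX, while Cdh2, Pdgfrb and Zeb1 did not exceed 0.786 CPM in any 4T1 sample. Of 9 leukocyte markers, Cd68, a lysosomal protein, made up nearly all of a summed 53.1 to 90.2 CPM with vehicle and 133 to 198 CPM with CIX in 4T1 cells. In 67NR samples these markers summed to 9.46 to 14.6 and 36.9 to 42.4 CPM, of which Cd68 held 7.56 to 11.8 and 34.4 to 40.3 CPM and Lyz2 at most 2.02 CPM, while Adgre1 was at 0 in all samples and Ptprc (CD45) did not exceed 1.44 CPM. The 4 endothelial markers summed to at most 3.21 CPM in any sample. The part of these markers in the results below was not tested. In bulk RNA, fewer cells that express a gene and less of its RNA per cell cannot be told apart.

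In 4T1 cells the genes of both signalling RNA receptors, of TRIM25 and of PKR fell with CIX. The threshold for a call was that of the study, a p-value below 0.001 in limma-voom after Benjamini-Hochberg adjustment over all genes tested. Of the 10 sensors, 9 passed the filter on low values, and 4 of these 9 were called lower in CIX treated 4T1 cells (Ifih1, Ddx58, Trim25 and Eif2ak2), beside 3.95% of all 11678 genes tested. By limma-voom and edgeR 0 were called higher, beside 5.32% of all genes, with 1, Mavs, at an unadjusted p below 0.05 and called by DESeq2. The median log2 fold change over the 9 tested sensors was -0.87, beside -0.01 over all genes. The groups did not overlap for 7 of the 9, and for 39.9% of all genes tested. In 67NR cells 8 sensors could be tested and 0 were called, beside 0.181% of the 11583 genes tested called higher and 0.207% called lower, and the groups did not overlap for 2 of the 8, beside 23.3% of all genes. In 67NR cells 2 of the 8 had an unadjusted p below 0.05, and edgeR also called 0, whereas DESeq2 called 1, Cgas. Over all genes of 67NR cells 21 were called higher and 24 lower, and 14 higher and 25 lower without scaling beyond library size.

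**Figure D1:**
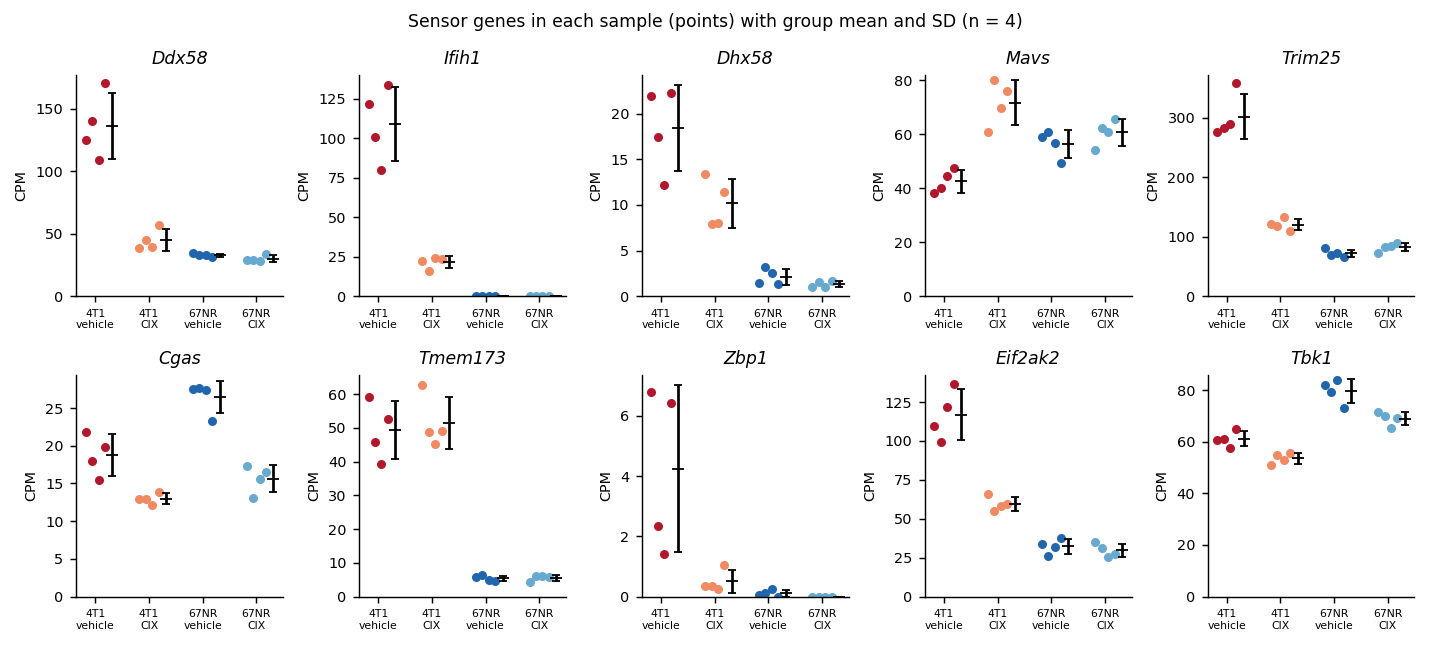
Expression of the 10 sensor genes in CPM (linear axes from 0) in each of the 16 samples, in order of sample number within a group. Points are samples, and the black bar beside them gives the group mean with its SD (n = 4). Ddx58, Ifih1, Trim25 and Eif2ak2 lie lower in all 4 CIX samples than in all 4 vehicle samples of 4T1 cells, while Ifih1 and Zbp1 lie near 0 in 67NR cells.

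Ifih1 (chr2:62595798-62646255, minus strand) encodes MDA5 and had the largest log2 fold change of the tested sensors in 4T1 cells. Its level was 121, 101, 79.85 and 133.5 CPM in vehicle samples 3, 7, 11 and 15 and 22.4, 16.1, 24.2 and 23.3 CPM in CIX samples 4, 8, 12 and 16. The highest CIX sample therefore lay far below the lowest vehicle sample. The log2 fold change was -2.34 (SE 0.197, 95% confidence interval -2.78 to -1.90, adjusted p = 6.74e-05, limma-voom), a level 0.197 times that of the vehicle, and the call held with any of the 8 samples left out. In 67NR cells the gene was at or near the detection floor, with estimated counts of 0 to 3 per sample with vehicle and 0 to 2 with CIX, 6 in each group. The filter left it out there, and the exact permutation test of log2(CPM + 0.5) gave p = 1 (two-sided, smallest possible 0.0286). Over the summed counts of the vehicle samples the level was 1759-fold higher in 4T1 than in 67NR cells, with an exact 95% interval of 808 to 4794 that covers counting error only.

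Ddx58 (chr4:40203773-40239828, minus strand) encodes RIG-I and was lower in CIX treated 4T1 cells too. Vehicle samples 3, 7, 11 and 15 held 125, 140.2, 109 and 170 CPM, and CIX samples 4, 8, 12 and 16 held 38.2, 44.8, 39.1 and 57.1 CPM. The groups were wide apart, with samples 15 and 16 the highest of theirs. Ddx58 had a log2 fold change of -1.62 (SE 0.171, adjusted p = 1.62e-04, limma-voom) and the call again held without any of the 8 samples. In 67NR cells Ddx58 was expressed at 34.2, 32.9, 32.7 and 31.5 CPM with vehicle (samples 1, 5, 9 and 13) and 28.6, 29.0, 28.2 and 34 CPM with CIX (samples 2, 6, 10 and 14). Here the groups overlapped through sample 14, and the log2 fold change of -0.16 (95% confidence interval -0.33 to 0.02, adjusted p = 0.195) did not pass. The mean of CIX treated 4T1 cells, 44.8 ± 8.69 CPM (SD, n = 4), stood above the 32.8 ± 1.08 CPM of vehicle treated 67NR cells, and the samples of these groups did not overlap.

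Dhx58 (chr11:100694884-100704271, minus strand) encodes LGP2, which lacks the signalling domains of the other 2 receptors and modulates them. It was at 21.9, 17.4, 12.2 and 22.3 CPM in the 4T1 vehicle samples and 13.4, 7.89, 8.04 and 11.5 CPM in the CIX samples. The groups overlapped, since CIX sample 4 exceeded vehicle sample 11. The log2 fold change of -0.87 (SE 0.25, adjusted p = 0.0191) missed the threshold. In 67NR cells the level was low, 1.36 to 3.20 CPM with vehicle and 1.00 to 1.70 CPM with CIX, with a log2 fold change of -0.64 (95% confidence interval -1.40 to 0.12, adjusted p = 0.22). The antisense gene Dhx58os overlaps Dhx58 on the other strand. The library kit keeps the strand, but whether the counting used it is not given in the sources used here, so that reads of overlapping genes may not have been told apart.

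Trim25 (chr11:88999376-89020293, plus strand) encodes a ubiquitin ligase known to promote RIG-I signalling. It was expressed at 276, 282.5, 289.5 and 358 CPM in vehicle samples 3, 7, 11 and 15 and at 121, 118, 132.5 and 109 CPM in CIX samples 4, 8, 12 and 16 of 4T1 cells. Sample 15 stood above the other vehicle samples, but each of them exceeded each CIX sample. Trim25 changed by a log2 fold of -1.34 (SE 0.11, adjusted p = 6.74e-05, limma-voom), and was called without any of the 8 samples as well. In 67NR cells the levels were 80.7, 69.3, 72.5 and 66.3 CPM with vehicle and 72.9, 83.2, 85.2 and 89.8 CPM with CIX. Those groups overlapped, with a log2 fold change of 0.18 (95% confidence interval -0.01 to 0.37, adjusted p = 0.183), so that the estimate pointed the other way than in 4T1 cells without passing the test.

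Mavs (chr2:131234063-131248025, plus strand), the adaptor of both RNA receptors, had the only positive log2 fold change above 0.1 among the sensors in 4T1 cells. Its level was 38.2, 40.1, 44.4 and 47.6 CPM with vehicle and 60.8, 80.0, 69.6 and 76.0 CPM with CIX. All CIX samples lay above all vehicle samples. The log2 fold change of 0.73 (SE 0.12, 95% confidence interval 0.46 to 1.00) just missed the threshold in limma-voom (adjusted p = 0.00133) and passed it in DESeq2 (adjusted p = 3.85e-07), in a fit of all 16 samples (adjusted p = 4.95e-05) and without CIX sample 4. The study, also by limma-voom and with that threshold, counted Mavs among the genes changed by CIX in 4T1 cells. In 67NR cells the level was 59.0, 60.9, 56.5 and 49.3 CPM with vehicle and 54.0, 62.4, 60.6 and 65.7 CPM with CIX, overlapping groups with a log2 fold change of 0.09 (95% confidence interval -0.10 to 0.27, adjusted p = 0.523).

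Cgas (chr9:78430526-78443237, minus strand), the DNA sensor, had a negative log2 fold change in both lines, and neither passed the threshold. In 4T1 cells it was at 21.9, 17.9, 15.4 and 19.9 CPM with vehicle and 12.9, 13.0, 12.1 and 13.9 CPM with CIX. In 67NR cells it was at 27.5, 27.6, 27.4 and 23.3 CPM with vehicle and 17.3, 13.1, 15.5 and 16.5 CPM with CIX. The groups did not overlap in either line, with vehicle sample 13 the lowest of the 67NR controls. This gave a log2 fold change of -0.54 (SE 0.141, adjusted p = 0.0126) in 4T1 cells and -0.78 (SE 0.102, adjusted p = 0.00208) in 67NR cells. DESeq2 called both, with adjusted p-values of 8.46e-04 and 4e-09, and the fit of all 16 samples called the one in 67NR cells (adjusted p = 7.64e-04). The gene Gm8093 overlaps Cgas on the other strand.

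Tmem173 (chr18:35733679-35740554, minus strand) encodes STING, and no change with CIX was detected in either line. In 4T1 cells it was at 59.2, 45.9, 39.4 and 52.7 CPM with vehicle and 62.8, 48.9, 45.1 and 49.0 CPM with CIX. In 67NR cells it ranged from 4.55 to 6.27 CPM with vehicle and from 4.35 to 6.23 CPM with CIX. Groups overlapped in both lines. The log2 fold changes of 0.05 (95% confidence interval -0.30 to 0.40, adjusted p = 0.825) and 0.03 (95% confidence interval -0.34 to 0.40, adjusted p = 0.928) leave changes within these intervals undetected, and the sign in 4T1 cells turned to -0.01 without scaling beyond library size.

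Zbp1 (chr2:173206612-173218923, minus strand) encodes a receptor of left-handed nucleic acid duplexes that can start cell death through RIPK3, and it was the scarcest sensor in 4T1 cells. It was at 6.80, 2.36, 1.42 and 6.45 CPM in vehicle samples 3, 7, 11 and 15 (165, 54, 33 and 157 counts) and at 0.363, 0.343, 0.25 and 1.05 CPM in CIX samples 4, 8, 12 and 16 (9, 8, 7 and 26 counts). The vehicle samples of 4T1 cells varied more than for any other sensor, with a coefficient of variation of 64.9%, yet all of them exceeded CIX sample 16, the highest of its group. The filter left the gene out. The exact permutation test of log2(CPM + 0.5) gave p = 0.0286 (two-sided), the smallest this design allows, and in the limma-voom fit without a filter the log2 fold change of -2.95 (SE 0.676, adjusted p = 0.00888) did not pass the threshold. Over the summed counts, 409 against 50, the level was 8.71-fold higher with vehicle (exact 95% interval 6.48 to 11.9, counting error only). In 67NR cells the samples held 1, 3, 6 and 0 counts with vehicle and 0 in each with CIX. Over the summed counts, 10 against 0, the ratio of vehicle to CIX was 3.285 with the 0 set to a floor of 3 counts over the group. That ratio carries no counting error for the 10 and is not a lower limit. The difference did not pass either test, with p = 0.143 in the exact permutation test (two-sided) and an adjusted p = 0.14 in the limma-voom fit without a filter.

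Eif2ak2 (chr17:78852564-78882573, minus strand) encodes PKR, a kinase that binds double-stranded RNA and halts translation through eIF2α. In 4T1 cells it was at 110, 99.1, 122 and 137 CPM in vehicle samples 3, 7, 11 and 15 and 65.8, 54.8, 58.0 and 59.6 CPM in CIX samples 4, 8, 12 and 16. The groups were separate, with a log2 fold change of -0.98 (SE 0.12, adjusted p = 3.27e-04, limma-voom). Its call was lost when CIX sample 8, 12 or 16 or vehicle sample 11 or 15 was left out, with adjusted p-values of 0.00183, 0.00143, 0.0017, 0.0011 and 0.00107 and log2 fold changes between -0.99 and -0.91. In 67NR cells the level was 34.03, 26.3, 31.6 and 37.3 CPM with vehicle and 35.02, 31.2, 25.3 and 27.3 CPM with CIX, overlapping groups with a log2 fold change of -0.14 (95% confidence interval -0.46 to 0.18, adjusted p = 0.551).

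Tbk1 (chr10:121546455-121586787, minus strand), the kinase shared by both branches, varied little within groups, with coefficients of variation between 3.83% and 5.87%. It was at 60.8, 61.2, 57.7 and 64.9 CPM with vehicle and 51.0, 54.9, 52.8 and 55.5 CPM with CIX in 4T1 cells, and at 82.0, 79.3, 83.9 and 73.2 CPM and 71.6, 69.8, 65.3 and 69.0 CPM in 67NR cells. In each line the groups did not overlap, with CIX the lower. The log2 fold changes were small, -0.21 (SE 0.0882, adjusted p = 0.0823) in 4T1 cells and -0.22 (SE 0.0613, adjusted p = 0.0359) in 67NR cells, and neither passed the threshold.

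**Figure D2:**
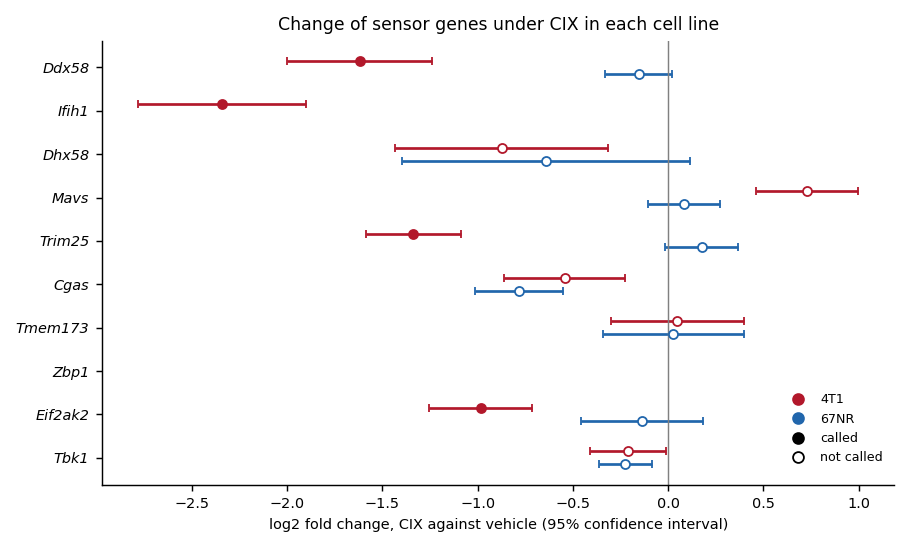
Log2 fold change of CIX against vehicle with its 95% confidence interval (limma-voom) for each sensor, in 4T1 cells (red) and in 67NR cells (blue). Filled points passed the adjusted p-value threshold of 0.001, and no point is drawn where the filter left the gene out (Zbp1 in both lines, Ifih1 in 67NR cells). Ifih1, Ddx58, Trim25 and Eif2ak2 are filled in 4T1 cells, at -2.34, -1.62, -1.34 and -0.98, and no 67NR point is filled.

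Whether a sensor responded differently in the 2 lines was tested with an interaction term over all 16 samples. Of the 9 sensors in that fit, 8 of which could be tested in 67NR cells, 2 were called with a lower response in 4T1 than in 67NR cells, beside 3.06% of all 12635 genes tested. With a higher response 0 were called by limma-voom and edgeR, beside 4.80%, with 1, Mavs, at an unadjusted p below 0.05. The difference in log2 fold change, 4T1 minus 67NR, was -1.52 for Trim25 (SE 0.143, adjusted p = 4.91e-06, limma-voom) and -1.47 for Ddx58 (SE 0.206, adjusted p = 1.06e-04). Both were called whichever of the 16 samples was left out. Eif2ak2, with a difference of -0.85 (SE 0.184, adjusted p = 0.00277), and Mavs, with 0.64 (SE 0.149, adjusted p = 0.0045), missed the threshold and passed it in DESeq2 (adjusted p = 1.66e-04 and 2.53e-04). For Ifih1, which the filter left out in 67NR cells, no difference is given. The differences were 0.24 for Cgas (95% confidence interval -0.13 to 0.60, adjusted p = 0.336), -0.24 for Dhx58 (-1.32 to 0.85, adjusted p = 0.776), 0.02 for Tmem173 (-0.56 to 0.60, adjusted p = 0.973) and 0.01 for Tbk1 (-0.19 to 0.22, adjusted p = 0.943). The latter 2 turned to -0.03 and -0.04 without scaling beyond library size.

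With vehicle alone, Ddx58, Dhx58, Trim25, Tmem173 and Eif2ak2 were higher in the metastatic line. Of the 8 sensors tested, 5 were called higher in vehicle treated 4T1 than in vehicle treated 67NR cells (Tmem173, Dhx58, Trim25, Ddx58 and Eif2ak2), beside 20.4% of all 11058 genes tested, and 0 were called lower by limma-voom and edgeR, beside 19.6%, with 3 at an unadjusted p below 0.05. The samples of the lines did not overlap for any of the 8, as for 61.6% of all genes. The log2 differences were 3.18 for Tmem173 (SE 0.196, adjusted p = 1.23e-06, limma-voom), 3.15 for Dhx58 (SE 0.349, adjusted p = 4.02e-05), 2.05 for Trim25 (SE 0.104, adjusted p = 4.56e-07), 2.02 for Ddx58 (SE 0.141, adjusted p = 2.34e-06) and 1.85 for Eif2ak2 (SE 0.142, adjusted p = 4.16e-06). Each of these calls was made in all 8 fits without a sample. Ifih1 and Zbp1, left out by the filter, were called higher in the limma-voom fit without one (adjusted p = 1.98e-07 and 5.15e-04), beside 3286 of the 22724 genes of that fit. Their values came through 4T1 cells, since the vehicle samples of 67NR cells held 6 and 10 counts in sum. Over summed counts Zbp1 was 41.7-fold higher in 4T1 cells (exact 95% interval 22.4 to 87.5, counting error only, with 33 to 165 counts per vehicle sample of 4T1 cells). The exact permutation test gave p = 0.0286 for Ifih1 and for Zbp1, the smallest it allows. Mavs, Cgas and Tbk1 had negative log2 differences, of -0.42 (adjusted p = 0.00409), -0.51 (adjusted p = 0.00512) and -0.39 (adjusted p = 0.00132), which missed the threshold, while DESeq2 called Tbk1 (adjusted p = 3.13e-05). The fit of all 16 samples also called 1 sensor lower. The vehicle treated samples of each line also entered the comparisons with CIX above, so that these results share samples.

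Per transcript length, Ddx58 had the highest mean level in vehicle treated 4T1 cells at 112 ± 25.7 TPM (SD, n = 4), but its range overlapped that of Eif2ak2 (100.1 ± 16.1 TPM), which overlapped that of Trim25 (95.7 ± 15.3 TPM). Below a gap followed Tbk1 (65.15 TPM), Tmem173 (57.6 TPM) and Ifih1 (48.5 TPM), each overlapping its neighbour, then Dhx58 (25.1 TPM) and Mavs (23.2 TPM), which overlapped, and apart from them Cgas (7.66 TPM) and Zbp1 (2.82 TPM). In CIX treated 4T1 cells Tmem173 (56.3 TPM), Tbk1 (53.5 TPM) and Eif2ak2 (47.75 TPM) came first with overlapping ranges. Mavs (36.6 TPM), Trim25 (35.7 TPM) and Ddx58 (34.6 TPM) formed the next overlapping group, and Dhx58 (13.0 TPM), Ifih1 (8.94 TPM), Cgas (4.96 TPM) and Zbp1 (0.308 TPM) followed one below the other without overlap. In 67NR cells Tbk1 stood above all others by TPM, at 79.8 ± 7.03 TPM with vehicle and 68.6 ± 1.49 TPM with CIX. Mavs, Eif2ak2, Ddx58 and Trim25 followed between 21.5 and 28.9 TPM with vehicle and between 23.1 and 30.96 TPM with CIX, overlapping from neighbour to neighbour. Cgas (10.2 TPM), Tmem173 (5.92 TPM) and Dhx58 (2.73 TPM) lay below them with vehicle and did not overlap, and with CIX Tmem173 (6.12 TPM) and Cgas (5.96 TPM) did. These orders depend on the lengths used, which are unweighted means over all annotated transcripts (1615 bases for Ddx58, 4196 for Trim25). By CPM, Trim25 led in vehicle treated 4T1 cells, with a mean of 301 against 136 for Ddx58. Trim25 also exceeded Tbk1 in CIX treated 67NR cells by CPM, with means of 82.8 and 68.9.

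**Figure D3:**
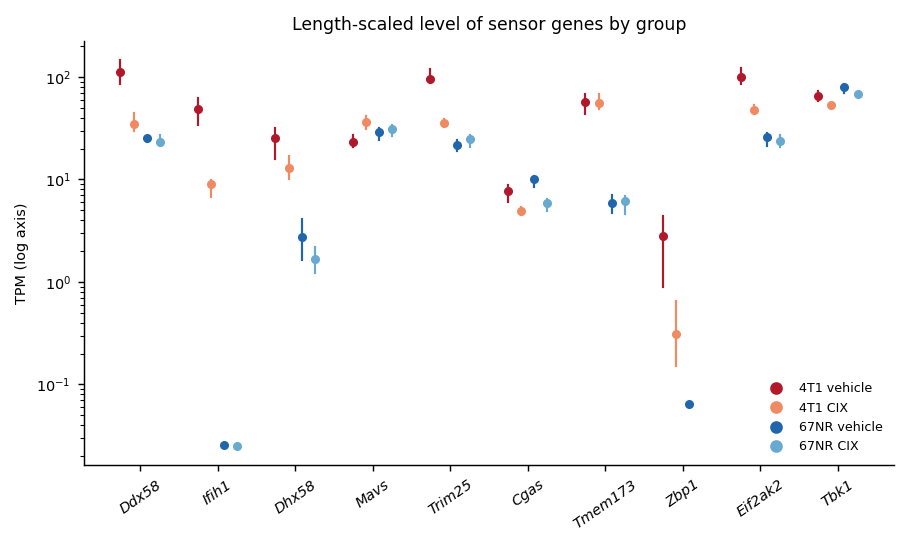
Level of each sensor per transcript length (TPM, log axis) in the 4 groups. Points are group means and lines run from the lowest to the highest of the 4 samples. Groups with a sample at 0 have no line, and Zbp1 in CIX treated 67NR cells, at 0 in all samples, has no point. Ddx58, Eif2ak2 and Trim25 lead in vehicle treated 4T1 cells and Tbk1 in 67NR cells.

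The other genes of the pathways were taken from lists. Of their 67 genes in the interaction 50 could be tested in 67NR cells, and the others passed the filter through 4T1 cells, so that interaction calls are given by gene and not as a share of a list. Among 16 regulators of the RNA receptors and MAVS, 15 were tested in 4T1 cells, with 0 called higher (5 at an unadjusted p below 0.05, 2 by DESeq2 and 0 by edgeR) and 2 lower, beside 5.32% and 3.95% of all genes. Ddx60, an interferon-induced helicase linked to RIG-I, went from 11.4 to 19.8 CPM with vehicle to between 0.808 and 2.65 CPM with CIX, a log2 fold change of -3.66 (SE 0.351, adjusted p = 1.08e-04, limma-voom). Ddx3x, an RNA helicase that can act with MAVS and TBK1, fell by 0.59 on the log2 scale (SE 0.0846, adjusted p = 6.74e-04), although other genes hold 6.46% of its words of 31 bases. Rnf135 (RIPLET), the ligase that ubiquitinates RIG-I beside TRIM25, was called in the interaction by limma-voom and edgeR, beside 3.06% of all genes called lower there, with a difference of -1.97 (SE 0.355, adjusted p = 7.36e-04), while DESeq2 called 3 genes of the list, beside 1085 higher and 896 lower of all 12635 genes. Within the lines, limma-voom gave Rnf135 a log2 fold change of -1.72 in 4T1 cells (adjusted p = 0.00138) and 0.249 in 67NR cells (adjusted p = 0.322). Neither passed the threshold. In 4T1 cells DESeq2 called 1632 of the 11678 genes higher and 1464 lower, against which its counts for the lists are to be read.

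Of the 12 kinase, scaffold and transcription factor genes downstream of the adaptors, 12 were tested in 4T1 cells, 1 called higher and 1 lower, beside 5.32% and 3.95% of all genes. Irf3, the factor that TBK1 phosphorylates, rose from between 13.6 and 17.7 CPM to between 32.7 and 45.2 CPM, a log2 fold change of 1.28 (SE 0.153, adjusted p = 2.99e-04, limma-voom), and its response differed from that of 67NR cells by 1.25 (adjusted p = 5.25e-04), beside 4.80% of all genes called higher in the interaction. Besides Irf3, edgeR and DESeq2 each called Irf7 in the interaction, which was left out by the filter in 67NR cells. Irf7, the interferon-induced factor of the same family, fell from between 33.1 and 81.0 CPM to between 5.33 and 9.69 CPM, a log2 fold change of -2.76 (SE 0.326, adjusted p = 2.79e-04). Bcl2l12 overlaps Irf3, and Phrf1 overlaps Irf7, each on the other strand.

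Around cGAS and STING 16 of 16 genes were tested in 4T1 cells, with 0 called higher (3 at an unadjusted p below 0.05, 2 by DESeq2 and 0 by edgeR) and 4 lower, beside 5.32% and 3.95% of all genes. The genes called lower were Ifi204, a DNA-binding protein of the interferon-inducible p200 family (-1.38, adjusted p = 8.98e-04), the lysosomal nuclease gene Dnase2a (-1.31, adjusted p = 6.79e-04), the ubiquitin ligase gene Trim56 (-0.98, adjusted p = 7.05e-04) and Samhd1, which degrades deoxynucleotides (-0.88, adjusted p = 2.05e-04) and is named for its call in the interaction. Of the 31-base words of Ifi204, 34% occur in other genes, so that its estimate is uncertain. In the interaction Dnase2a (-1.74, adjusted p = 2.04e-04), Trim56 (-1.19, adjusted p = 2.44e-04) and Samhd1 (-0.73, adjusted p = 2e-04) were called lower, beside 3.06% of all genes, while edgeR called 4 genes of the list and DESeq2 5.

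The oligoadenylate synthetases make the messenger that activates RNase L on double-stranded RNA. Of the 10 genes of that list 9 were tested in 4T1 cells, 5 were called lower and 0 higher (also 0 at an unadjusted p below 0.05 and by edgeR and DESeq2), beside 3.95% and 5.32% of all genes, and the median log2 fold change of the 9 was -2.59, beside -0.01 over all genes. Oasl2 (-3.38, adjusted p = 7.07e-05) and Oasl1 (-2.92, adjusted p = 9.89e-05) had the largest, followed by Oas1g (-2.79, adjusted p = 3.86e-04). Oas1g shares 55.1% of its 31-base words with other genes, mostly Oas1a, and reads may have been split between them. In 67NR cells 1 of the 10 passed the filter, so that 8 of the 9 genes in the interaction were too low in that line to pass there, and no count of interaction calls is given for this list.

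Of the 10 partners of PKR, other eIF2α kinases and ADAR1, 10 were tested in 4T1 cells, 2 called higher and 0 lower (6 at an unadjusted p below 0.05, 4 by DESeq2 and 0 by edgeR), beside 5.32% and 3.95% of all genes. Those called higher were the genes of both protein partners with double-stranded RNA binding domains, Tarbp2 (1.38, SE 0.136, adjusted p = 1.28e-04, limma-voom), known to inhibit PKR, and Prkra (0.84, SE 0.117, adjusted p = 5.79e-04), known to activate it. Prkra was also higher with CIX in 67NR cells, at 17.7 to 19.3 CPM against 11.9 to 14.45 CPM with vehicle. There DESeq2 called it and limma-voom did not, and neither called it in the interaction. Tarbp2 was also called in the interaction (1.97, adjusted p = 4.91e-06), beside 4.80% of all genes, where DESeq2 called 2 genes of the list, with means of 39.2 CPM in vehicle and 26.4 CPM in CIX treated 67NR cells. The gene Gm18584 holds 16.6% of the 31-base words of Tarbp2. Of the 5 cell death partners of ZBP1, 4 were tested in 4T1 cells and 0 were called by limma-voom or edgeR, with 1 at an unadjusted p below 0.05 that DESeq2 called, Fadd, which was named after its value was seen, beside the same shares of all genes. The partner not tested was Ripk3, with at most 1 count in any sample of either line. In 67NR cells 50 genes of the 6 lists were tested and 0 were called by limma-voom or edgeR, with 19 at an unadjusted p below 0.05, beside the 0.181% and 0.207% of all genes that limma-voom called higher and lower. DESeq2 called 6 of these 50 and, over all 11583 genes of that line, 504 higher and 537 lower.

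**Figure D4:**
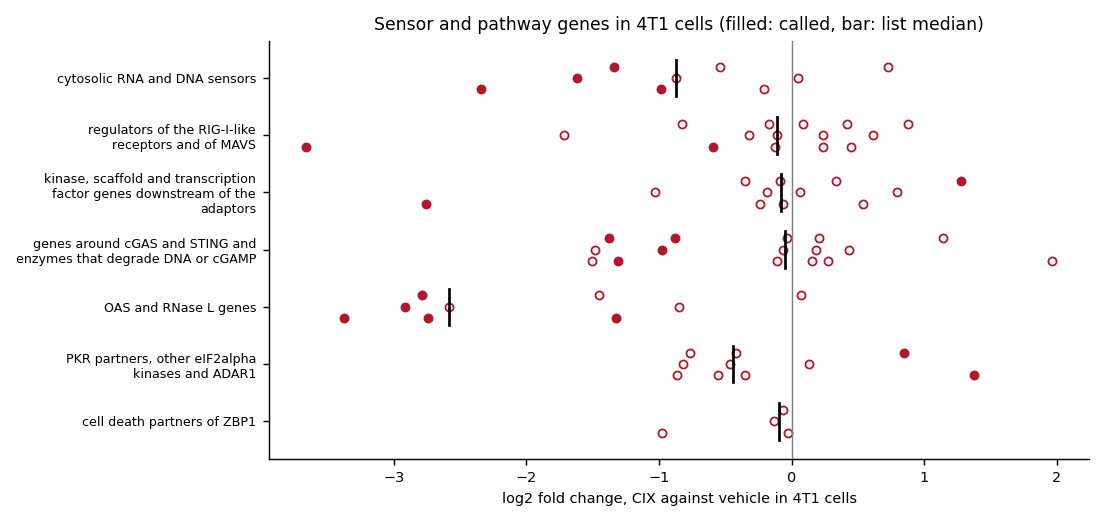
Log2 fold change of CIX against vehicle in 4T1 cells for the tested genes of the sensor list and of the 6 pathway lists. Each point is a gene, filled points passed the threshold of 0.001, the black bar is the median of the list, and points are offset vertically for legibility. The OAS list has a median of -2.59 and the sensor list one of -0.87, while the other medians lie between -0.44 and -0.05.

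Over the 16 samples the genes with the pattern most like that of a sensor, by Pearson's r of log2 CPM, were Ddx60 (0.985), Rtp4 (0.975) and Sppl2a (0.975) for Ddx58 and Slc37a1 (0.996), Prorsd1 (0.996) and Coro2a (0.995) for Ifih1. For Eif2ak2 they were Irf7 (0.984), Ifitm3 (0.983) and Mitd1 (0.981), and for Trim25 Tut1 (0.984), Dppa5a (0.981) and Ddx24 (0.98). These values describe the 16 libraries, which fall into 4 groups that differ by line and treatment, and high values follow from differences between groups alone.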

How the data were processed

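RNA of 4T1 and 67NR cells (4 biological replicates in each of 4 groups) was analysed. The authors quantified reads with salmon on Ensembl GRCm38 and summed transcripts to genes with tximport, and the deposited table holds estimated counts per gene without normalization. The submitters' processing notes list Salmon 0.12 and the human build GRCh38, whereas the gene IDs are of mouse. Of the values above 0, 0.0436% were whole numbers within 1e-06. Whether tximport scaled the counts by transcript length is not given in the sources used here, so that counts, the floor of 3 counts, counting intervals and TPM are approximate. Samples were grouped by their labels. GENCODE M21 held 32832 of the 33072 IDs.

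Estimated counts were rounded. The filter of the study was applied within each comparison and removed a gene whose TPM was under 1 in over 3 of the samples (for the interaction, in both lines). Tests used limma 3.58.1 (voom, TMM of edgeR 4.0.16) in R 4.3.3. Alternatives were edgeR's quasi-likelihood test, DESeq2 1.42.0, its size factors, no scaling beyond library size, no filter, all 16 samples in a common fit, a threshold of 0.05 and leaving out each sample. Words of 31 bases were compared between the transcripts of all genes. Another promoter motif was searched and is not reported here.

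The 10 genes, the pathway lists and the marker lists were chosen with earlier results of these data known. The text names all 10 sensors in each comparison, per list at most the 3 called genes with the largest log2 fold change in each direction and comparison (CIX in either line and the interaction), which gives a gene named in one comparison its values in another, and the 3 genes most like a sensor.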

Additional observations from a re-analysis of the deposited data

Results flagged for a closer look

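In 39 groups of 4 samples in which a sensor had a count, the gap of the highest or lowest sample to its neighbour was compared with the range of the group by Dixon's test, and chance places about 1 in 20 groups beyond its limit. The limit was exceeded in 5 groups. Ddx58 was at 34 CPM in CIX treated 67NR sample 14, where the other samples held 28.2 to 29.0 CPM. Cgas was at 23.3 CPM in vehicle treated 67NR sample 13, below 27.4 to 27.6 CPM in the others. Trim25 was at 358 CPM in vehicle treated 4T1 sample 15, above 276 to 289.5 CPM. Zbp1 was at 1.05 CPM in CIX treated 4T1 sample 16, above 0.25 to 0.363 CPM. Ifih1 was at 0 CPM in CIX treated 67NR sample 10, where the others held at most 0.0871 CPM, below the level of 3 counts. In 4T1 cells Trim25 was called with and without sample 15.

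The response to CIX differed between the lines, by the interaction test of limma-voom, for Ddx58 (difference in log2 fold change -1.47, adjusted p = 1.06e-04, lower in 4 of 4 CIX samples of 4T1 cells) and for Trim25 (-1.52, adjusted p = 4.91e-06, lower in 4 of 4 CIX samples of 4T1 cells).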

How the results depend on the processing

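The 4 calls among the sensors in 4T1 cells were also made by edgeR, DESeq2, with other scaling and without a filter, and 3 to 5 sensors were called when a sample was left out. At an adjusted p below 0.05, 7 sensors and 4981 genes were called in 4T1 cells, 2 and 2055 in 67NR cells, 4 and 3699 in the interaction and 8 and 7459 between the vehicle treated lines. DESeq2 called 3096 genes in 4T1 cells, 1041 genes and 1 sensor in 67NR cells, and 1981 genes and 4 sensors in the interaction. The fit of all 16 samples called 2688 genes in 4T1 cells and 151 genes and 1 sensor in 67NR cells. The cause of these shifts was not tested. Leaving out a sample gave 268 (without CIX sample 8) to 972 genes (without CIX sample 4) in 4T1 cells, where CIX sample 8, 12 or 16 or vehicle sample 7, 11 or 15 lowered the count by over 1.5 times, 0 to 75 in 67NR cells, where any sample did so or, for CIX sample 2, raised it, and 654 (without vehicle sample 7 of 4T1 cells) to 1048 in the interaction. Over all genes of 4T1 cells 621 were called higher and 461 lower, and 508 and 529 without scaling. Estimates near 0 changed sign. Without scaling Tmem173 was at -0.011 in 4T1 cells and -0.030 in the interaction, and Tbk1 at -0.036 in the interaction. Without a sample Tmem173 ranged from -0.067 to 0.145 in 4T1 cells, from -0.033 to 0.149 in 67NR cells and from -0.111 to 0.111 in the interaction, and Tbk1 from -0.018 to 0.052 in the interaction. No paired analysis was made, because the labels name no set, batch or day and give each sample a number of its own. Depth limits Ifih1 and Zbp1 in 67NR cells, where samples held at most 6 counts.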

Other observations

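Among the vehicle treated 4T1 samples, sample 11 was the lowest for 7 of the 10 sensors, sample 3 for 2 (Mavs and Trim25) and sample 7 for 1 (Eif2ak2). Sample 15 was the highest for 7 of the 10, and sample 3 for the other 3 (Cgas, Tmem173 and Zbp1). In CIX treated 4T1 cells 3 sensors were lowest in each of samples 4, 8 and 12 and 1 in sample 16. In vehicle treated 67NR cells sample 13 was the lowest for 8 of the 10 sensors. These counts were chosen after the values were seen, are a description of the samples and were not tested.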
